A study of Mus musculus with 7 samples.

Results

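Transcript levels of the aminoacyl-tRNA synthetases, the enzymes that attach amino acids to their tRNAs, were compared between haematopoietic stem cells (HSCs) with and without deletion of Mettl3. The members were the 36 rows of the deposited table whose gene symbol is that of a listed synthetase, out of 23038 rows, and all 36 were found. Of these, 20 encode cytosolic enzymes and 16, whose symbols end in 2, encode mitochondrial enzymes. Mettl3 encodes the catalytic part of the methyltransferase that writes N6-methyladenosine (m6A) into mRNA.

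The control group was Cre-negative littermates on the C57BL/6 background, with 3 libraries, and the mutant group was Mx1-cre; Mettl3 fl/fl mice of the same strain, with 4 libraries. The Mettl3 allele of the controls and the sex of the animals were not used here, and age is given as adult. Animals of both groups were injected intraperitoneally with pIpC (10 µg, 5 injections, every other day), which mimics double-stranded RNA, and were killed 10 days after the last one. The Mx1 promoter responds to interferon, so Cre is induced by pIpC in interferon-responsive cells in general, not in HSCs alone, and any response to pIpC itself is shared by both groups. Each library came from 150 HSCs sorted from bone marrow as lineage-negative, Sca1+, cKit+, CD150+ and CD48- cells, made into cDNA by the Smart-seq2 full-length protocol and read as pairs of 100 bases. The files hold 1 RPKM value (reads per kilobase of gene model and megaread) per gene and group. The spread between animals therefore cannot be computed, and no difference below has a standard deviation, a test or a replicate check.

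Each synthetase activates 1 amino acid with ATP and transfers it to the matching tRNA, and the pools of charged tRNA feed the ribosomes. The enzymes fall into classes I and II, which differ in the fold of the catalytic domain. Most amino acids have separate cytosolic and mitochondrial enzymes, both encoded in the nucleus. When amino acids run short, uncharged tRNA activates the kinase Gcn2 (Eif2ak4), translation of the transcription factor Atf4 increases, and Atf4 with a C/EBP partner induces amino acid synthesis, amino acid transport and many cytosolic synthetase genes through a composite element in their promoters. HSCs are known for a low rate of protein synthesis compared with other blood progenitors.

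The composite element is shown first because it is a sequence feature that sets some cytosolic members apart from the mitochondrial ones on paper, and it was not used to choose members. The RefSeq promoters (GRCm38.p6, from 250 bases before to 50 bases after a start listed for the promoter) covered 27 of the 36 members, 13 cytosolic and 14 mitochondrial. For some members the listed start is not the outer end of the gene span. The letters TGATGNAA, searched on both strands, were present in promoters of 5 of 13 cytosolic members (Aars, Gars, Iars, Tars and Yars) and of 0 of 14 mitochondrial members. Of all 32851 promoters listed there 3.97% held them, and of the 10710 promoters of genes at 1 RPKM or more in both groups 2.14% did. Aars had 2 matches and the other 4 genes 1 each. For each gene 1 match is printed with the 11 bases on either side, in the direction of transcription, with the match in capitals.
Aars, from base 10 of the transcript: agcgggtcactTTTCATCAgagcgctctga
Gars, first base 30 before the start: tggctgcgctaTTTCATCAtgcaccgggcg
Iars, from base 8 of the transcript: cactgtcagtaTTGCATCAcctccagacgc
Tars, first base 15 before the start: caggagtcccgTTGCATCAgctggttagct
Yars, from base 4 of the transcript: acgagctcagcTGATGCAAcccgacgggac
The Yars match reads TGATGNAA in the direction of transcription, and the other 4 shown read it on the opposite strand. Bases are counted from the start listed for the promoter, which for Aars and Yars lies inside the gene span. The Aars match shown begins at chr8:111033851, and the gene span at chr8:111027778. For Yars the match begins at chr4:129189906, and the gene span at chr4:129189734. A match to these letters is a description and not a measured binding site.

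The E-box CACGTG, the letters bound by Myc, Max and related factors, was present in promoters of 4 of 13 cytosolic members (Aars, Farsb, Iars and Tars) and 1 of 14 mitochondrial members (Ears2), against 10.4% of promoters of genes at 1 RPKM or more. Aars, Iars and Tars held both an E-box and an Atf4-type match. The upstream part of the Iars promoter is printed as an example, and its Atf4-type match lies after the start, in the stretch shown above. The E-box is in capitals, and the sequence runs 5′ to 3′ on the plus strand (GRCm38.p6).
Iars, chr13:49681880-49682129: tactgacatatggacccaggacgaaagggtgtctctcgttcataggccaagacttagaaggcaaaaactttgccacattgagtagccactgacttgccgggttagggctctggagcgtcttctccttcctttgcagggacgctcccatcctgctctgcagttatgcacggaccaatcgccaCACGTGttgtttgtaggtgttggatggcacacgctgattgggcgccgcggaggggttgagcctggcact
Other letters searched on both strands were CCGGAAGT (ETS factors), found in Farsa, Mars and Rars2, and CCAAT, found in 7 cytosolic and 6 mitochondrial members against 38.4% of promoters of genes at 1 RPKM or more. A YY1 element was found in Yars2 and TTTGGCGC (E2F) in Fars2. TCACGTGA, a longer E-box, was found in Aars and Farsb. An NRF1 palindrome and TGACGTCA (CRE) had no match in the promoters of members. Their shares of promoters of genes at 1 RPKM or more were 8.80% for CCGGAAGT, 1.73% for the YY1 element, 0.99% for TTTGGCGC, 2.07% for TCACGTGA, 2.21% for the NRF1 palindrome and 3.10% for TGACGTCA.

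Mettl3, the targeted gene, stood at 49.8 RPKM in the control column and 9.60 RPKM in the mutant column, or 19.3%. Genes without reads carry a small offset in both columns. If that offset is 1 read, it corresponds to 24.2 megareads for a typical control library and 28.7 megareads for a typical mutant library. No member was at the offset, and all 36 were at 1 RPKM or more in both groups, as were 10502 genes of the table. Defining HSC markers were present in both groups, with Slamf1 (CD150) at 25.9 and 27.1 RPKM, Procr at 53.3 and 46.0 RPKM and Kit at 67.4 and 39.9 RPKM, and Cd48, which the sort selects against, was at 5.33 and 4.04 RPKM. Of 11 HSC markers 6 were higher and 5 lower in mutants, against 52.1% higher among all genes at 1 RPKM or more. The higher ones include Cd34 (113 and 136 RPKM), which was listed as a marker that is low in HSCs. Of the markers of other blood cells, Cd3e, Cd8a, Ms4a1, Ncr1, Csf1r and Adgre1 were at the offset in both groups, whereas Cd68 (26.4 and 108 RPKM), Prtn3 (276 and 368 RPKM), Lyz2 (406 and 289 RPKM) and Nkg7 (124 and 62.3 RPKM) were not. Over whole lists the summed levels of controls and mutants were 39.2 and 65.6 RPKM for 8 erythroid markers and 291 and 376 RPKM for 8 neutrophil markers. Nearly all of the neutrophil sum was Prtn3, while Camp (6.37 and 0.562 RPKM), S100a9 (1.99 and 0.071 RPKM) and S100a8 (6.13 and 5.09 RPKM) were lower in mutants and Mpo was at 0.049 and 1.43 RPKM. They were 436 and 402 RPKM for 11 macrophage and monocyte markers, and 127 and 64.4 RPKM for 9 T and NK cell markers. For B and plasma cells they were 137 and 139 RPKM over 8 markers, and for megakaryocytes 227 and 285 RPKM over 7. These sums also rest on few genes. Nearly all of the macrophage and monocyte sum was Lyz2 and Cd68, and nearly all of the T and NK sum was Nkg7. Cd79b (132 and 133 RPKM) made up nearly all of the B and plasma cell sum, with Cd79a, Ebf1 and Pax5 at the offset. Among megakaryocyte markers Selp was at 20.0 and 69.2 RPKM, Pf4 at 119 and 127 RPKM and Gp9 at 56.0 and 49.9 RPKM. The part of other blood cells in the synthetase values was not tested.

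The cytosolic enzymes differed little between the group values. Differences are given as log2((mutant + 1) / (control + 1)) in RPKM, a scale that understates the difference of low genes. Of 20 cytosolic members, 9 were higher and 11 lower in mutants, against 52.1% higher among the 10502 genes, and 0 of 20 were at least 1.5-fold apart, against 22.6% of genes. The log2 differences ran from -0.31 for Hars to 0.53 for Yars, with a median of -0.05, beside 0.02 for all genes. Among the 2482 genes with a mean of 50 RPKM or more, where 16 of the 20 lie, 13.1% were at least 1.5-fold apart, and among the 3714 genes between 10 and 50 RPKM, where the other 4 lie, 23.7% were.

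**Figure D1:**
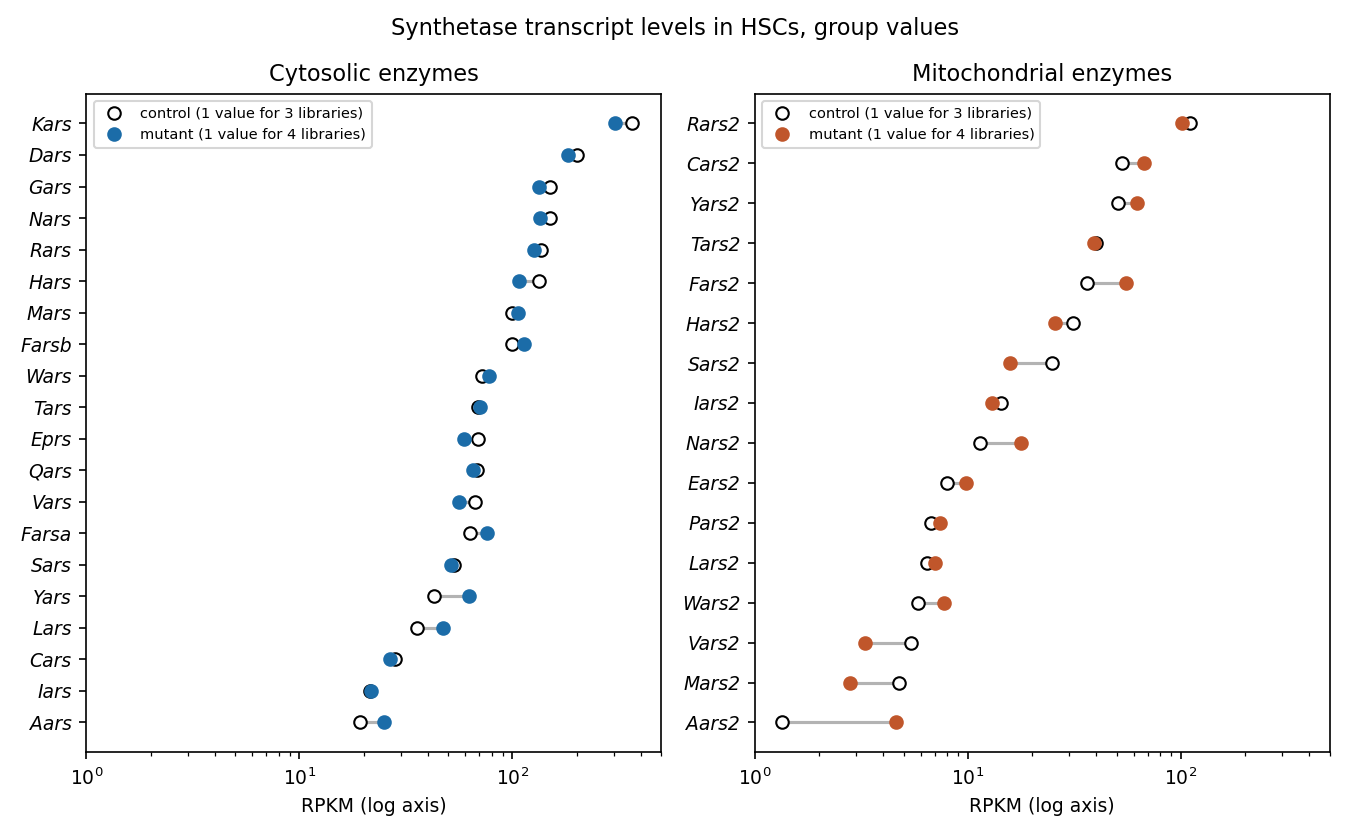
RPKM of the 20 cytosolic and 16 mitochondrial synthetase genes on a log axis, with the control value as an open circle, the mutant value as a filled circle and a line joining them. Cytosolic genes lie between 19.2 and 363 RPKM, and mitochondrial genes between 1.34 and 111 RPKM, with the longest line for Aars2.

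Levels differed more between the enzymes than between the groups. Kars, the lysyl-tRNA synthetase whose gene serves both cytosol and mitochondria, had the highest value in both groups, 363 RPKM in controls and 304 in mutants. Dars, for aspartate, followed with 201 and 183 RPKM. Gars, for glycine, also serves both compartments and was at 150.03 and 134 RPKM, beside Nars, for asparagine, at 149.8 and 134 RPKM. The order of these 2 neighbours turns between the groups, and with 1 value per group their order cannot be resolved. The lowest cytosolic values in controls were those of Aars at 19.2 RPKM, Iars at 21.5 RPKM and Cars at 28.2 RPKM. Iars, for isoleucine, was at 21.7 RPKM in mutants and Cars, for cysteine, at 26.7 RPKM.

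Yars, the tyrosyl enzyme, differed most among the cytosolic genes (chr4:129189734-129219240, GRCm38.p6). Its values were 43.0 RPKM in controls and 62.6 in mutants, a ratio of 1.46. Lars, the leucyl enzyme that also takes part in leucine sensing for mTORC1, was at 35.6 and 47.2 RPKM, a ratio of 1.32. Aars, the alanyl enzyme, which also proofreads tRNA wrongly charged with serine, was at 19.2 and 25.0 RPKM, a ratio of 1.30. In the control column these genes ranked 16 (Yars), 17 (Lars) and 20 (Aars) among the 20.

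Both subunits of the phenylalanyl enzyme were higher in mutants. The catalytic subunit gene Farsa was at 63.4 and 75.9 RPKM and the partner subunit gene Farsb at 98.9 and 113 RPKM. Mars, the methionyl enzyme that supplies initiator and elongator tRNA, was at 99.3 and 106 RPKM. Wars, the tryptophanyl enzyme and a gene known to respond to interferon gamma, was at 72.3 and 77.3 RPKM. Tars, for threonine, was nearly level at 69.1 and 70.1 RPKM.

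On the lower side, Hars, the histidyl enzyme, had 133 RPKM in controls and 107 in mutants, 80.6% of control. Kars was at 83.6% of control, and Vars, the valyl enzyme, was at 66.6 and 56.0 RPKM, 84.0%. Eprs, a single protein with glutamyl and prolyl activities, was at 68.9 and 58.9 RPKM, 85.6%. The remaining lower genes stayed within a narrow band, with Gars at 89.0%, Nars at 89.7%, Dars at 90.7% and Rars, for arginine, at 93.0% (136 and 126 RPKM). Cars was at 94.8%, Qars, for glutamine, at 95.8% (68.4 and 65.5 RPKM) and Sars, for serine, at 97.3% (53.1 and 51.7 RPKM).

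Groups made by structure overlapped among the cytosolic genes. In the multisynthetase complex, a cytosolic assembly of synthetases on scaffold proteins, 3 of 8 enzyme genes were higher (Lars, Mars and, by a margin that turns when the mutant column is divided by the median ratio, Iars), with a median log2 difference of -0.08. Outside it 6 of 12 were higher, with a median of -0.01. The scaffold genes were at 123 and 106 RPKM for Aimp1, 140.2 and 159 RPKM for Aimp2 and 68.7 and 69.8 RPKM for Eef1e1. Of 9 class I genes of the cytosol 5 were higher (median 0.01), and of 10 class II genes 4 were (median -0.09). Beside these counts, 52.1% of all genes were higher. Eprs holds both classes and was left out of both counts.

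The members with an Atf4-type match had no common direction. Yars and Aars were higher in mutants (0.53 and 0.36 on the log2 scale), Iars and Tars were nearly level (0.01 and 0.02), and Gars was lower (-0.17).

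The mitochondrial genes had lower levels, with medians of 12.9 RPKM in controls and 14.4 in mutants beside 69.0 and 73.0 for the cytosolic genes, and their log2 differences ran wider, from -0.62 for Sars2 to 1.26 for Aars2. Of 16, 9 were higher and 7 lower in mutants, against 52.1% higher among all genes, with a median log2 difference of 0.11. At least 1.5-fold apart were 5 of 16, or 31.2%, against 22.6% of all genes, with 3 of them higher (13.0% of all genes) and 2 lower (9.61% of all genes). By level range, 2 of 7 with a mean between 1 and 10 RPKM were that far apart, against 27.1% of the genes there, 3 of 6 between 10 and 50 RPKM, against 23.7%, and 0 of 3 above, against 13.1%. The median log2 difference of the cytosolic set minus that of the mitochondrial set was -0.16. This difference of medians has no error, since members are not replicates.

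**Figure D2:**
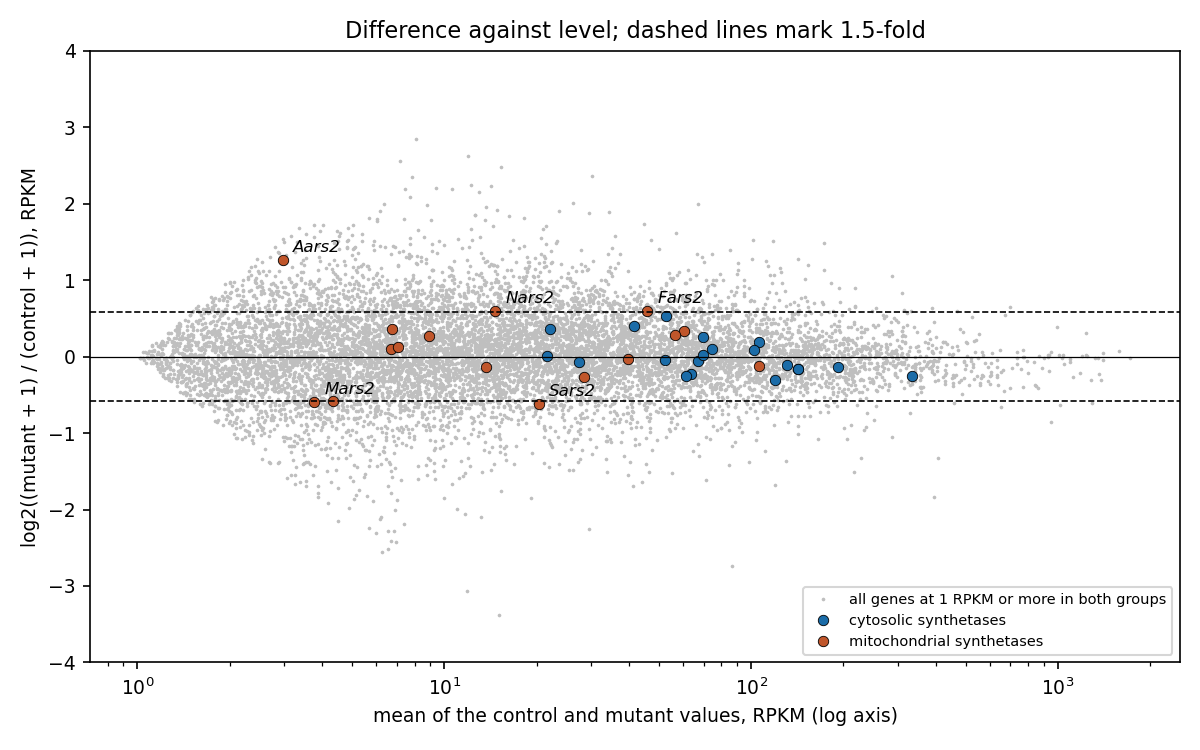
Log2 difference of the group values against their mean level in RPKM (log axis) for 10502 genes (grey) and the cytosolic (blue) and mitochondrial (orange) synthetases, with dashed lines at 1.5-fold. All 20 cytosolic points lie between the lines, and the 5 mitochondrial points outside them are named.

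Aars2, the mitochondrial alanyl enzyme (chr17:45503515-45520843), was the member farthest apart and the only one at least 2-fold apart, as were 5.94% of all genes. It had 1.34 RPKM in controls, the lowest member value, and 4.61 RPKM in mutants, a ratio of 3.44 and a log2 difference of 1.26. On its longest annotated coding transcript these values come to about 108 reads in a typical control library and 442 in a typical mutant library, if the offset is 1 read. Whether a single library carried the mutant value cannot be told from a group value.

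Nars2, for asparagine (chr7:96950839-97064758), had 11.4 RPKM in controls and 17.8 in mutants, a ratio of 1.56. Fars2, a single-chain phenylalanyl enzyme (chr13:36117428-36537595), was at 36.2 and 55.2 RPKM, a ratio of 1.52. With the mutant column divided by the median ratio of all genes, both came just under 1.5-fold, at 0.57. Wars2, for tryptophan, was at 5.81 and 7.74 RPKM and Cars2, for cysteine, at 53.1 and 67.4 RPKM. Ears2, which charges glutamate and also misacylates the glutamine tRNA for later conversion, was at 7.98 and 9.79 RPKM. Yars2, for tyrosine, was at 50.8 and 62.1 RPKM, Pars2, for proline, at 6.69 and 7.41 RPKM and Lars2, for leucine, at 6.46 and 7.00 RPKM.

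Sars2, the mitochondrial seryl enzyme (chr7:28741957-28753879), had 24.8 RPKM in controls and 15.8 in mutants, 63.7% of control. Mars2, the methionyl enzyme (chr1:55237177-55240058), was at 4.75 and 2.80 RPKM, 59.0% of control. Vars2, for valine, was at 5.39 and 3.28 RPKM, or 60.9%, a log2 difference of -0.58 that lies just inside the 1.5-fold line. Without a pseudocount, or with the mutant column divided by the median ratio, Vars2 passed it (-0.72 and -0.60). These 3 genes were lower in mutants while Aars2, Nars2 and Fars2 were higher, so the mitochondrial set went both ways.

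The other mitochondrial members differed less. Rars2, for arginine, had the highest mitochondrial value in both groups, at 111 and 102 RPKM. Iars2, for isoleucine, was at 14.3 and 12.9 RPKM, Tars2, for threonine, at 40.0 and 39.2 RPKM and Hars2, for histidine, at 31.3 and 25.8 RPKM.

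For 16 amino acids the cytosolic and mitochondrial genes could be set side by side within a column, with Farsa for phenylalanine and Eprs for both glutamate and proline. The cytosolic gene was the higher one for 14 of 16 in controls and 15 of 16 in mutants, with a median ratio of 4.89 and 4.79. The exceptions were cysteine, where Cars was at 0.53 of Cars2 in controls and 0.40 in mutants, and tyrosine in controls, where Yars was at 0.85 of Yars2 before the ratio reached 1.01 in mutants. The ratio was lower in mutants for 8 amino acids and higher for 8. It moved most for alanine, from 14.4 to 5.42, with Aars at 19.2 and 25.0 RPKM and Aars2 at 1.34 and 4.61 RPKM. For asparagine it went from 13.1 to 7.55, and for methionine it was higher in mutants, at 20.9 and 37.7. For arginine (1.22 and 1.24), threonine (1.73 and 1.79) and histidine (4.25 and 4.16) the ratio was nearly the same in both groups. Both genes of a pair differed in the same direction for 9 of 16.

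**Figure D3:**
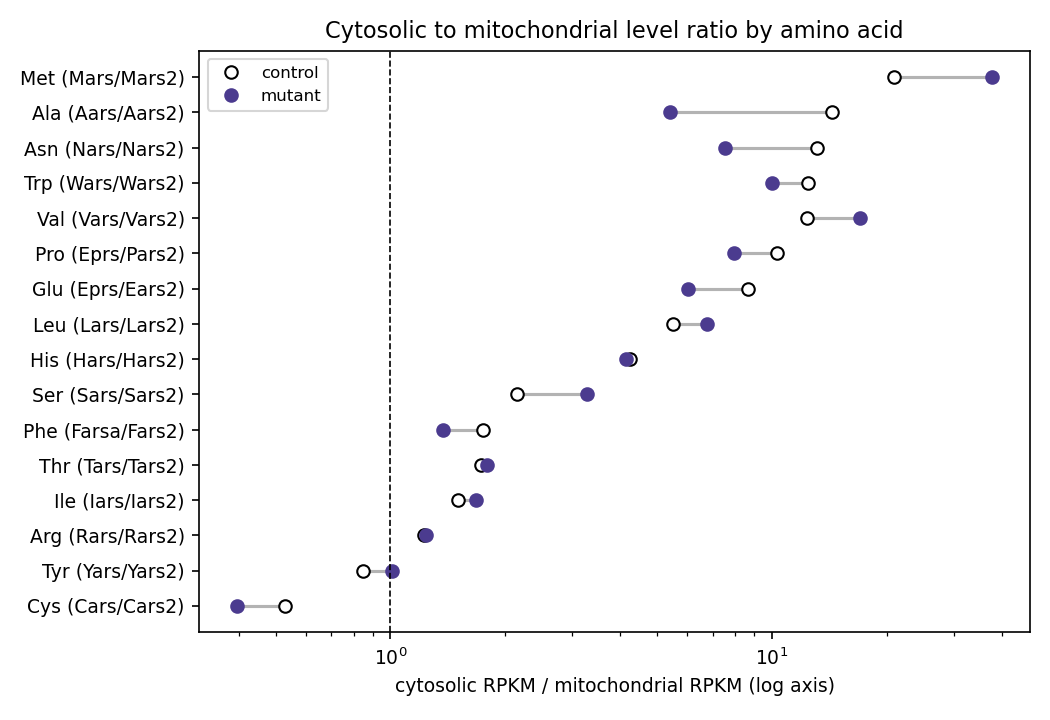
Ratio of cytosolic to mitochondrial RPKM for each of 16 amino acids on a log axis, with the control ratio as an open circle and the mutant ratio as a filled circle, and a dashed line at equal levels. Alanine moves farthest to the left, from 14.4 to 5.42, and methionine farthest to the right, from 20.9 to 37.7.

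Of 13 genes that work beside the synthetases, 9 were higher in mutants and 4 lower, against 52.1% higher among all genes. Their median log2 difference was 0.32, with 4 of them at least 1.5-fold higher and 1 as much lower, beside 13.0% and 9.61% of all genes. The route that makes selenocysteine on a tRNA first charged by Sars went both ways. Pstk, which phosphorylates the seryl group, had 65.0 RPKM in controls and 43.4 in mutants, whereas Sepsecs, which then converts it to selenocysteine, was at 9.38 and 17.4 RPKM. Secisbp2, which binds the selenocysteine insertion element in mRNA, was at 10.6 and 21.6 RPKM. Mammalian mitochondria have no glutaminyl synthetase and use Ears2 with an amidotransferase, whose subunit genes were at 18.8 and 31.3 RPKM for Gatb, 35.5 and 38.8 RPKM for Gatc and 20.2 and 18.8 RPKM for Qrsl1. Mtfmt, which formylates the mitochondrial initiator tRNA, was at 24.4 and 30.6 RPKM.

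Among proofreading genes, Dtd1, a deacylase that removes D-amino acids from tRNA, was at 309 and 163 RPKM, the lowest ratio of this list. Its relative Dtd2 was at 14.0 and 22.3 RPKM. Aarsd1, which removes serine wrongly attached to the alanine tRNA, was at 148 and 133 RPKM and Prorsd1 at 10.2 and 11.3 RPKM. Ptrh2, a peptidyl-tRNA hydrolase, was at 14.4 and 21.2 RPKM. Outside the 36, the synthetase gene Tarsl2 was at 5.85 and 8.36 RPKM.

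Genes of the amino acid response, the pathway that senses uncharged tRNA, did not share a direction. Of 25 listed, 20 were at 1 RPKM or more in both groups, 10 of them higher and 10 lower, against 52.1% higher among all genes. Their median log2 difference was -0.02, and 4 stood at least 1.5-fold apart in each direction, against 13.0% higher and 9.61% lower among all genes. The sensor and the factor were both lower in mutants, Eif2ak4 at 13.0 and 7.50 RPKM and Atf4 at 80.4 and 56.1 RPKM. Ppp1r15a, a phosphatase subunit that ends the response, was at 280 and 132 RPKM, and Ddit3 (CHOP) at 70.5 and 40.1 RPKM. In contrast, the folate enzyme gene Mthfd2 was at 6.97 and 19.3 RPKM and the glutathione-degrading enzyme gene Chac1 at 0.587 and 3.37 RPKM. Asparagine synthetase (Asns) was at 87.6 and 79.4 RPKM. The C/EBP genes Cebpb and Cebpg were higher in mutants, at 13.0 and 32.0 RPKM and at 5.02 and 8.72 RPKM. Eif2ak4, Atf4, Asns, Cebpb and Cebpg fall outside the rule for named genes and were chosen after their values were seen.

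Of 16 amino acid transporter genes 11 were at 1 RPKM or more in both groups. Of these, 7 were higher in mutants (median 0.17), against 52.1% of all genes. Slc7a5, which imports leucine and other large neutral amino acids, was at 5.96 and 15.5 RPKM and was the single gene of these 11 at least 1.5-fold apart, against 22.6% of all genes. Slc43a1, of the same transport activity, was at 31.5 and 26.9 RPKM. Slc6a9 and Slc43a2 were below or near 1 RPKM in at least 1 group (1.53 and 0.704 RPKM for Slc6a9, 0.718 and 1.03 RPKM for Slc43a2). In the mTORC1 and leucine sensing list 10 of 16 were higher, with a median of 0.14, against 52.1% higher among all genes. Of the 16, 2 were at least 1.5-fold higher and 2 as much lower, beside 13.0% and 9.61% of all genes. The Rag GTPase gene Rragb was at 6.40 and 13.2 RPKM and Rraga at 7.40 and 14.0 RPKM. Nprl2, a subunit of the complex that restrains the Rag GTPases, was at 71.5 and 33.9 RPKM, and the sestrin gene Sesn3 at 8.41 and 5.26 RPKM.

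Among genes that make and process tRNA 24 of 41 were higher (median 0.07), against 52.1% of all genes. Of the 41, 6 were at least 1.5-fold higher and 2 as much lower, beside 13.0% and 9.61% of all genes. Pop7, a protein subunit of RNase P, which trims the 5′ end of tRNA, was at 41.7 and 107 RPKM, and another, Rpp30, at 136 and 81.9 RPKM. Rpp25, also of RNase P, was at 0.031 and 1.07 RPKM and fell short of 1 RPKM in controls. Polr3f, a subunit of RNA polymerase III, was at 4.66 and 2.69 RPKM. Of 12 mitochondrial translation factors 8 were higher (median 0.19), against 52.1% of all genes. Only 1 of the 12 was at least 1.5-fold apart, against 22.6% of all genes. The release factor gene Mtrf1 was at 14.6 and 23.1 RPKM and the recycling factor gene Mrrf at 33.7 and 50.1 RPKM, whereas Mtrf1l was at 11.3 and 8.48 RPKM and the initiation factor gene Mtif3 at 30.6 and 25.8 RPKM.

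**Figure D4:**
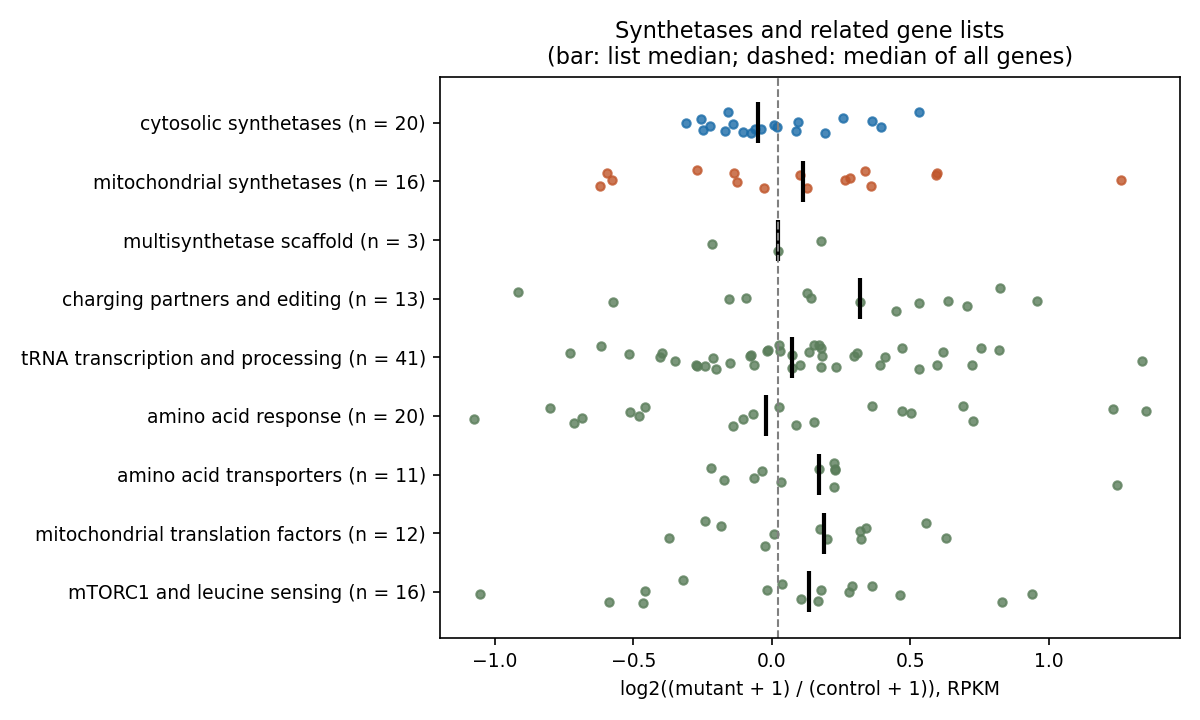
Log2 differences of the 20 cytosolic and 16 mitochondrial synthetases and of 7 related gene lists at 1 RPKM or more in both groups, 1 point per gene, with a black bar at each median and a dashed line at the median of all genes (0.02). Medians run from -0.05 for cytosolic synthetases to 0.32 for charging partners and editing, and the points of every list lie on both sides of 0.

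Some synthetase genes start next to a gene on the other strand. The Smart-seq2 protocol in its standard form does not keep strand, and the sources used here do not say whether reads were counted by strand. In GENCODE M21, 9 members had a protein-coding gene starting on the other strand within 1000 bases, in 8 distinct pairs. In 7 of these both genes were at 1 RPKM or more in both groups, and 3 of the 7 pairs differed in the same direction. Hars and Hars2 start 197 bases apart on opposite strands with overlapping first exons, 195 exon bases in all, and stood at 80.6% and 82.4% of control. Reads within the overlap cannot be assigned to either gene without strand. Sars2 starts 172 bases from Mrps12, a gene of the small mitochondrial ribosomal subunit, without overlap, and the pair went opposite ways: Sars2 was at 24.8 and 15.8 RPKM and Mrps12 at 131 and 212 RPKM. Rars2 starts 13 bases from Orc3, at 31.5 and 29.3 RPKM, and Wars starts within 543 bases of Wdr25, at 3.33 and 5.69 RPKM. Kars lies 75 bases from Terf2ip (15.4 and 15.8 RPKM), Fars2 overlaps the start of Lyrm4 (132.4 and 132.1 RPKM), and Ears2 that of Ubfd1 (15.9 and 14.0 RPKM).

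Overlapping exons also limit other values. Iars2 shares 2034 exon bases with Rab3gap2 on the opposite strand, which was at 5.31 and 10.4 RPKM, and Mars shares 68 with Ddit3. Aars shares 1326 exon bases with Exosc6 on the same strand, for which no value was used here. The labels do not say how the authors assigned reads in these stretches.

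As a sequence feature that bears on Mettl3, the letters GGACT, a frequent core of m6A sites, were counted in the longest coding GENCODE M21 transcript of each gene. The median was 1.00 per kilobase over the 20 cytosolic members and 1.07 over the 16 mitochondrial members, beside 1.04 over 9108 genes at 1 RPKM or more with such a transcript. None was found in Farsa, Rars, Pars2 and Tars2. The highest density was 3.60 per kilobase in Hars2, followed by Rars2 (2.68), Lars2 (2.57) and Yars (2.41). Across genes the Spearman correlation between this density and the log2 difference was -0.17 over the cytosolic members, -0.06 over the mitochondrial members and -0.01 over the 9108 genes. These describe the same 2 columns, genes are not independent replicates, and the letters are not measured methylation.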

How the data were processed

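RNA was measured in 7 libraries of sorted HSCs, and the groups were taken from the sample titles. The authors deposited 1 table with RPKM values in 2 columns, 1 per group, per the file headers. The submitters' processing notes name mm10, Picard and edgeR, with no roles; aligner, gene annotation and the way libraries were combined: not given in the sources used here. The columns were mapped to groups by name. The 2 fold thresholds (1.5 and 2) on log2((mutant + 1) / (control + 1)) are rules of size and not tests, and the background is the 10502 genes at 1 RPKM or more in both groups. Members, gene lists and motifs were chosen with earlier results of these data known. Named genes are all 36 members, Mettl3, all scaffold and partner genes reported here, and the 2 highest and 2 lowest of each other pathway list among genes at 1 RPKM or more in 1 of the groups. Positions and promoters are from RefSeq (GRCm38.p6, the assembly mm10 names), where all 36 members matched by gene ID. Transcripts are from GENCODE M21. Scripts ran in Python 3.11.15 with pandas 2.3.3, numpy 2.4.6 and matplotlib 3.10.9, and the summary functions were tested on simulated data. Alternatives were pseudocounts, scalings, a level minimum and means. Some listed genes and a sequence are not reported here.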

Additional observations from a re-analysis of the deposited data

How the results depend on the processing

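Shifts of a log2 value by up to 0.1 were read as small, since no spread between libraries is known. With a minimum mean of 5 RPKM, 3 mitochondrial enzymes were at least 1.5-fold apart in place of 5, because Aars2 and Mars2 drop out. The number was 6 without a pseudocount or with 0.1 RPKM, and 4 with the mutant column divided by the median ratio, while the cytosolic number was 0 at every setting run. The difference of the cytosolic and mitochondrial values stayed between -0.18 and -0.09, the latter with means in place of medians. The cytosolic value turned from -0.05 to 0.01 with the mean, as did the amino acid response (-0.02 to 0.03), and the scaffold turned from 0.02 to -0.004. Median ratio scaling moved all log2 ratios by -0.02 and turned the sign of Iars and Tars, leaving 7 cytosolic genes higher in place of 9. Without a pseudocount, Aars2 was at 1.78, Mars2 at -0.76 and Mettl3 at -2.37, and 3 of 36 members (with Vars2) moved by over 0.1. No paired analysis was possible because each group has a single column that carries no replicate number, and leaving out replicates was not run for the same reason. The group values cannot show whether 1 library carries a difference. If the offset is 1 read, Aars2 rests on about 108 reads per control library.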
